A study of Mus musculus with 5 samples.

Results

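Cdkn1a, which encodes the cyclin-dependent kinase inhibitor p21, and 7 other genes known as targets of the transcription factor p53 were followed in mouse hepatocytes. The other 7 were Mdm2, Ccng1, Btg2, Trp53inp1, Gdf15, Bax and Phlda3. These 8 genes were given by name as a set, out of 31053 genes in the count matrices, and all 8 were found by symbol. Droplet single-cell RNA libraries (10x v3 chemistry) came from livers of C57BL/6J mice: normal postnatal day 14 mice, adult control mice, and adult mice killed 24, 48 or 96 h after part of the liver had been cut away (partial hepatectomy, PHx). Adult mice were 8 weeks old. Each of the 5 groups was 1 library. The labels give neither sex nor the number of animals behind a library, and no transgene or knockout is named.

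The title, source and age fields call the second sample an adult control, whereas the treatment text shared by all samples lists it among the operated mice; it is treated here as the control. A code in the sample descriptions ends in L002 for the adult control and in L001 for the other 4 libraries. Whatever that code stands for and the control state cannot be told apart. With 1 library per group there is no test between groups: the intervals below are exact 95% intervals that cover counting error only, and differences between animals or between preparations are not in them. The set was chosen with earlier results of these data known, so its levels are a description.

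p53 is held at a low level in unstressed cells by Mdm2, a ubiquitin ligase that marks it for degradation and is itself a p53 target, which closes a negative feedback loop. When p53 is stabilised, for example by DNA damage, its targets slow the cell cycle, aid repair, or promote death. p21 binds cyclin and CDK complexes and the replication clamp PCNA, and in liver it is known to be made after hepatectomy also without p53. Hepatocytes are quiescent in the adult and re-enter the cell cycle after hepatectomy.

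Promoter sequence just before the start sites was read for p53 elements. RefSeq promoter windows of GRCm38.p6 (250 bases before a start site, written along the gene's strand) were found for 7 of the 8 genes, with none for Trp53inp1. They were searched on both strands for the p53 half-site, for the 20-base p53 element made of 2 adjoining half-sites with at most 1 mismatch, for the cyclic AMP response element TGACGTCA, and for the E-box CACGTG. A half-site lay in 7.13% of all 32851 windows of the same length, the 20-base element in 0.0761%, TGACGTCA in 1.55% and CACGTG in 6.02%. The windows below are those of the 2 genes with a 20-base element, Cdkn1a and Ccng1, and of Btg2, which had TGACGTCA and no p53 match; capitals mark the matches.
Cdkn1a, chr17:29090729-29090978, plus strand: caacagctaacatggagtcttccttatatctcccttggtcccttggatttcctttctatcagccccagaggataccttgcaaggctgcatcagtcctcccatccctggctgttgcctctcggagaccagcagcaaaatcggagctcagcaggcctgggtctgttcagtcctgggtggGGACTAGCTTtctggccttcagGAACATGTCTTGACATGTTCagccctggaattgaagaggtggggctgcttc
Ccng1, chr11:40755287-40755536, minus strand: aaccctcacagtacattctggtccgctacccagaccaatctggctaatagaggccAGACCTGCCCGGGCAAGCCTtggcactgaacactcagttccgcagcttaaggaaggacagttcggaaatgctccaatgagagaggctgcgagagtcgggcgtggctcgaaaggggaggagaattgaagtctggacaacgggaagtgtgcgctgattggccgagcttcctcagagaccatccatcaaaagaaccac
Btg2, chr1:134079156-134079405, minus strand: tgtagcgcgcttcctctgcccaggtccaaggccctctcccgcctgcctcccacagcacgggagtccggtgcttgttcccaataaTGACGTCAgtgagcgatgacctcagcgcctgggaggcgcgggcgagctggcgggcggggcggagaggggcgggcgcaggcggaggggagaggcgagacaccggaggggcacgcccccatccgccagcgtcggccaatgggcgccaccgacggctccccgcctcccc

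Positions are counted from the start site, with negative values before it. In the Cdkn1a window the 20-base match began at -51 from the first annotated start site and at -2841 from the second. A further half-site began at -73 from the first start site, and the window of the second start site held no match to any of these motifs. The Ccng1 match ran from -195 to -176. Mdm2 (GAACTTGCCT, from -186) and Bax (AGGCAAGCTT, from -201) held 1 half-site each. Phlda3 and the 2 Gdf15 windows held no p53 match, and 1 Gdf15 window and the Bax window held CACGTG. These matches are letters in a window only; no binding was measured here, and a window without a match says nothing about elements elsewhere in the gene.

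Hepatocytes were taken as barcodes with at least 5000 UMIs (unique molecular identifiers, counted transcripts), 10 to 30% mitochondrial UMIs and at least 1% of UMIs from Alb, Apoa1 and Ttr. This gave 925 hepatocytes in the adult control, 1170, 719 and 771 at 24, 48 and 96 h, and 2106 at postnatal day 14, with median totals from 18527 to 38922.5 UMIs. The median hepatocyte of each library had all 10 of 10 further hepatocyte markers. Only 3 of 5688 hepatocyte barcodes occurred in more than 1 library. Empty droplets held a median of 1330 UMIs in the adult control against 287 to 775 in the other libraries, so the control stands apart in free RNA. Markers of another class (at least 3 of 10, erythroid list aside) were found in 22 control, 136, 353 and 27 PHx (24, 48 and 96 h) and 87 postnatal hepatocytes. At least 3 erythroid markers were found in 726, 760, 679, 353 and 414 hepatocytes in the order control, 24, 48 and 96 h and postnatal day 14. Levels are given as CPM, the UMIs of a gene summed over the hepatocytes of a library and scaled to a total of 1000000 UMIs without mitochondrial genes.

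Cdkn1a (chr17:29090979-29100722) was close to absent in the adult control and abundant at 24 h. Its level was 2.25 CPM in the control (30 UMIs), 107, 76.9 and 14.4 CPM at 24, 48 and 96 h, and 70.0 CPM at postnatal day 14. By CPM the order was thus 24 h, 48 h, postnatal day 14, 96 h and control. The counting intervals of neighbours in this order did not overlap. The order of 48 h and postnatal day 14 depends on the scaling. TMM, another way to scale libraries, divides CPM by 1.01 at 48 h and 0.842 at postnatal day 14, which puts postnatal day 14 above 48 h. Over the control the ratio was 47.3-fold at 24 h (95% interval 33.0 to 70.3), 34.2-fold at 48 h (23.8 to 50.8), 6.41-fold at 96 h (4.35 to 9.75) and 31.1-fold at postnatal day 14 (21.7 to 46.1). From 48 h to 96 h its level dropped to 0.188 of the earlier value (0.161 to 0.218). Unoperated postnatal hepatocytes therefore had a Cdkn1a level near that of the regenerating adult liver at 48 h.

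The free RNA of a library mirrored this order. Cdkn1a in empty droplets was 2.04 CPM in the control, 94.8, 72.4 and 12.0 at 24, 48 and 96 h, and 63.8 at postnatal day 14. A median empty droplet held 0.810 to 7.18% as many UMIs as a median hepatocyte. With that free RNA subtracted, the log2 ratio over the control at 24 h was 5.04, against 5.05 before (both on the log2 scale of CPM plus 1). Cdkn1a in empty droplets was 0.832 to 0.942 of its hepatocyte level. The subtraction could therefore move this ratio little, and no conclusion about free RNA is drawn from it. The mitochondrial window mattered only at 96 h: in hepatocytes with 10 to 20% mitochondrial UMIs (87 control cells and 53 at 96 h), the 96 h log2 ratio was 0.38 in place of 2.25.

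Mdm2 (chr10:117688875-117710758), the ligase that degrades p53, differed far less. Its level was 25.5 CPM in the control, 38.0, 33.0 and 32.7 at 24, 48 and 96 h, and 13.8 at postnatal day 14. The 3 PHx libraries were above the control by 1.49-fold (1.31 to 1.70), 1.30-fold (1.14 to 1.48) and 1.28-fold (1.11 to 1.48), and their intervals overlapped from one time to the next. At postnatal day 14 the level was 0.543 of the control (0.478 to 0.617), the lowest of the 5 libraries, although Cdkn1a was high there. In cells with 10 to 20% mitochondrial UMIs the log2 ratios of Mdm2 at 48 and 96 h were -0.13 and -0.16 in place of 0.36 and 0.35. Trp53, which encodes p53, was 12.5 CPM in the control, 24.1, 16.3 and 16.1 at 24, 48 and 96 h, and 17.0 at postnatal day 14. It was 1.92-fold over the control at 24 h (1.61 to 2.31).

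Ccng1, Btg2 and Trp53inp1 encode proteins that restrain growth or tune p53, and each followed its own course. Ccng1 (cyclin G1, chr11:40748552-40755309) was 39.4 CPM in the control, 45.2, 51.3 and 58.6 at 24, 48 and 96 h, and 12.5 at postnatal day 14. It was highest at 96 h, 1.49-fold over the control (1.33 to 1.66), when Cdkn1a had come down. At 24 h its ratio was 1.15 (1.03 to 1.28), a log2 ratio of 0.19, which was -0.16 in cells with at least 3% hepatocyte transcripts. At postnatal day 14 it was 0.317 of the control (0.284 to 0.354). In postnatal hepatocytes Ccng1 thus lay below the control and Cdkn1a above it. Both have a 20-base p53 match in the windows shown above, and the part of these matches in either level was not tested.

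Btg2 (chr1:134074865-134079155), an antiproliferative gene, was 55.0 CPM in the control, 67.4, 71.3 and 98.2 at 24, 48 and 96 h, and 117 at postnatal day 14. Its intervals at 24 and 48 h overlapped, and the 96 h and postnatal values stood above them. Its ratio over the control was 1.78-fold at 96 h (1.63 to 1.96) and 2.13-fold at postnatal day 14 (1.98 to 2.31). Trp53inp1 (chr4:11156441-11174379), a p53-induced nuclear and autophagy protein, was 45.7 CPM in the control, 127, 73.3 and 83.4 at 24, 48 and 96 h, and 92.1 at postnatal day 14. Its peak at 24 h was 2.77-fold over the control (2.54 to 3.04), and the 48 h level was 0.579 of the 24 h level (0.543 to 0.617).

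Gdf15 (chr8:70629393-70632470), a secreted stress hormone of the TGF-beta family, separated operated from unoperated mice. It was 3.08 CPM in the control (41 UMIs), 25.0, 21.8 and 25.7 at 24, 48 and 96 h, and 3.90 at postnatal day 14. The intervals of the 3 PHx libraries overlapped in order of level, as did those of the control and postnatal day 14, with a gap between the 2 sets. The ratios over the control were 8.11-fold (5.89 to 11.4), 7.08-fold (5.14 to 10.0) and 8.34-fold (6.02 to 11.8) at 24, 48 and 96 h, and 1.27-fold (0.908 to 1.81) at postnatal day 14. One control hepatocyte held 9 of the 41 control UMIs and 1 postnatal hepatocyte held 16 of 252. In the narrower mitochondrial window of 10 to 20% the log2 ratio at 24 h was 1.37 in place of 2.67, at 48 h 0.98 in place of 2.48, at 96 h 1.87 in place of 2.71, and at postnatal day 14 -1.12 in place of 0.27.

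Bax and Phlda3 act on survival: Bax permeabilises the outer mitochondrial membrane, and Phlda3 inhibits the kinase Akt. Bax (chr7:45461695-45466903) was 21.7 CPM in the control, 39.2, 43.8 and 40.8 at 24, 48 and 96 h, and 23.8 at postnatal day 14. The 3 PHx levels overlapped and stood 1.81-fold (1.58 to 2.08), 2.02-fold (1.77 to 2.31) and 1.88-fold (1.63 to 2.17) over the control. Bax was higher in empty droplets than in hepatocytes of every library, at 37.9 CPM in the control, 114, 110 and 99.1 CPM in the PHx libraries in order of time, and 46.2 CPM at postnatal day 14. With free RNA subtracted, its log2 ratio over the control was 0.82, 1.07 and 0.89 at 24, 48 and 96 h, against 0.82, 0.98 and 0.88 before. In counts thinned to 5000 UMIs per cell it was 0.38, 0.52 and 0.54.

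Phlda3 (chr1:135766085-135769134) was sparse, with 3 UMIs in the control (0.225 CPM), 29 at 24 h (1.49 CPM), 84 at 48 h (4.03 CPM), 41 at 96 h (3.05 CPM) and 13 at postnatal day 14 (0.201 CPM). Its levels at 48 and 96 h stood above that at 24 h, and the control and postnatal levels overlapped. Against the 3 control UMIs its ratio was 6.60-fold at 24 h (2.04 to 33.8), 17.9-fold at 48 h (5.92 to 88.5) and 13.5-fold at 96 h (4.32 to 68.4). On the log2 scale of CPM plus 1 the 24 h ratio was -0.42 in place of 1.02 with at least 3% hepatocyte transcripts, and the 48 h ratio was 0.00 in place of 2.04 in the 32 cells left without barcodes holding 3 markers of another class. In empty droplets it reached 0.435 to 7.43 CPM, above the hepatocyte level in all 5 libraries.

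**Figure D1:**
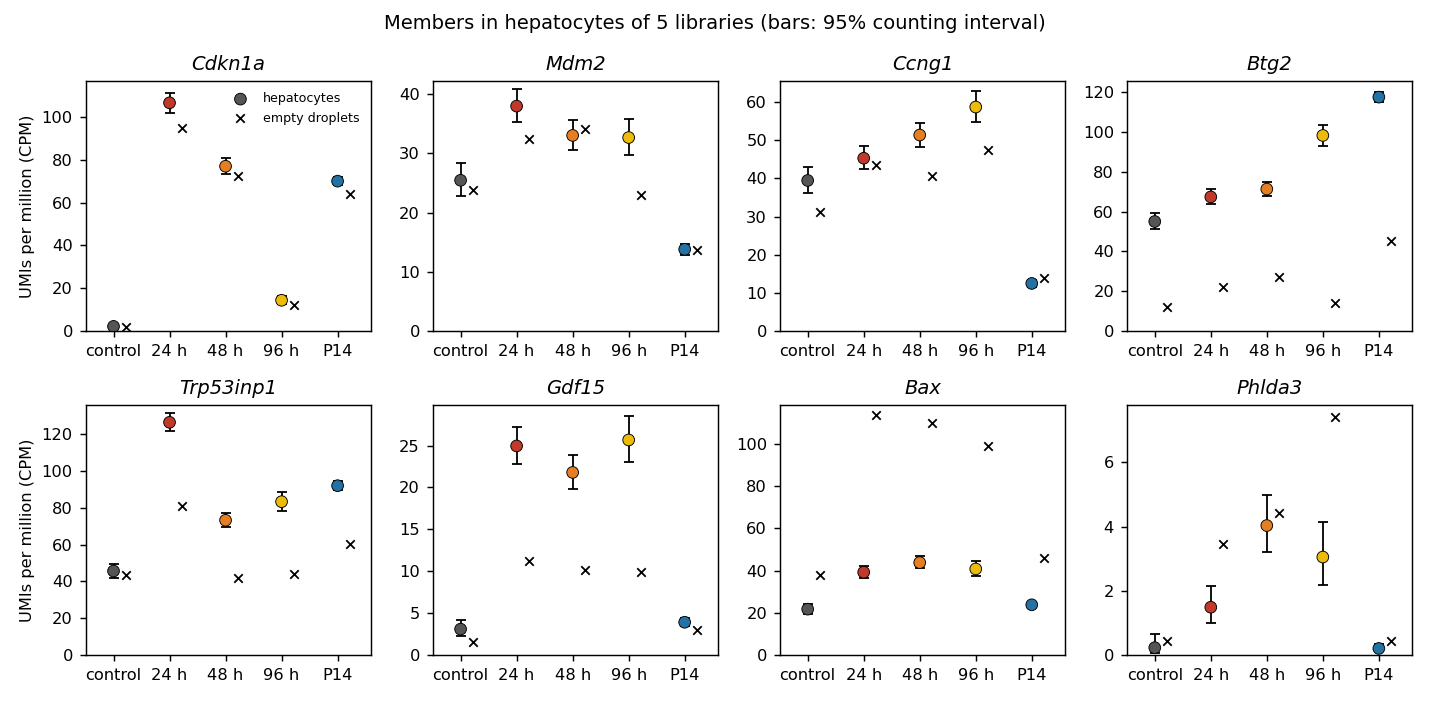
Level of each of the 8 genes (vertical axes, CPM, each from 0) in hepatocytes of the adult control, 24, 48 and 96 h after PHx and postnatal day 14 (P14); circles are 1 library each with exact 95% counting intervals, and crosses are empty droplets of the same library. Cdkn1a runs from 2.25 to 107 CPM, Gdf15 is high in the 3 PHx libraries only, and Bax crosses lie above its circles.

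A gene was counted as higher or lower when its log2 ratio of CPM plus 1 was at least 1 in size and it reached 5 CPM in either library. At 24 h, 3 of the 7 set members that passed this filter were higher (Cdkn1a, Gdf15 and Trp53inp1), where 8.51% of all 9028 genes tested were. At 48 h the count was 2 of 7 (Cdkn1a and Gdf15), where 8.3% of all genes were, and at 96 h the same 2 of 7, where 4.07% were. At postnatal day 14, 2 of 6 were higher (Cdkn1a and Btg2), where 7.89% of all genes were, and 1 of 6 lower (Ccng1), where 13.8% were. None was lower after PHx, where 7.13%, 7.63% and 1.88% of genes were at 24, 48 and 96 h. Phlda3 stayed under 5 CPM in all comparisons, and Gdf15 did at postnatal day 14. Cdkn1a and Gdf15 were under 5 CPM in the control. Where they passed the filter, they did so only through the other library, in which they were high. The median log2 ratio of the members that passed was 0.82, 0.67, 0.86 and 0.56 in these 4 comparisons, beside -0.00, -0.08, 0.04 and -0.26 for all genes. Since these levels were known when the set was named, and since the filter lets in genes that are high in either library, nothing is read from the counts or medians. All 4 comparisons share the control library. With TMM scaling the median of all genes at postnatal day 14 moved up by 0.34, and 62.6% of the genes past 2-fold there were higher, against 36.3% by CPM. The member ratios at postnatal day 14 given above are by CPM, and TMM scaling moves them up too.

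Hepatocytes with at least 1 UMI of Mki67 or Top2a, markers of cycling cells, were compared with hepatocytes of the same library that had neither. Positive cells numbered 15 of 925 in the control, 360 of 1170 at 24 h, 400 of 719 at 48 h, 136 of 771 at 96 h and 589 of 2106 at postnatal day 14. With at least 2 UMIs of the pair they numbered 4, 221, 328, 89 and 333 in the same order, and with 1 UMI in counts thinned to 5000 per cell 5, 198, 253, 66 and 268, so the class is set in part by depth. Empty droplets of the control held 1.04 CPM of Mki67 and 1.64 of Top2a, against 1.43 and 1.73 in its hepatocytes, and the part of free RNA in its 15 cells was not tested. In the other libraries the empty droplets held 4.72 to 36.0 CPM of Mki67 and 6.43 to 38.3 of Top2a, against 32.1 to 120 and 15.3 to 80.9 in hepatocytes. Positive cells were deeper in the PHx libraries (a median of 23732 and 18175.5 UMIs at 24 h, 41820 and 30149 at 48 h, and 28114.5 and 20858 at 96 h) but not at postnatal day 14 (38903 against 38929). In the control the 15 positive cells had a median of 21676 UMIs against 18417 in negative cells. Ratios at 5000 UMIs per cell, which rest on fewer UMIs, are therefore set beside those from all UMIs below.

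Counted from all UMIs, Cdkn1a was higher in the positive cells of all 5 libraries. Positive against negative cells had 24.1 against 1.84 CPM in the control (6 and 24 UMIs), 144 and 84.1 at 24 h, 93.6 and 47.8 at 48 h, 44.1 and 6.43 at 96 h, and 83.4 and 64.7 at postnatal day 14. The ratio was 1.72 (1.58 to 1.87), 1.96 (1.74 to 2.21) and 6.86 (5.07 to 9.35) in order of time after PHx and 1.29 (1.21 to 1.37) at postnatal day 14. At 5000 UMIs per cell these were 1.57, 1.61, 5.49 and 1.30. The control ratio of 13.1 (4.40 to 33.0) rests on 15 positive cells and was turned around in cells with 10 to 20% mitochondrial UMIs and in those with at least 3% hepatocyte transcripts, which held 1 and 5 positive cells. At 5000 UMIs per cell the control held 1 Cdkn1a UMI in positive and 2 in negative cells (30.6, 0.519 to 588), too few to show a difference.

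The library differences in Cdkn1a were present in cells without Mki67 or Top2a UMIs as well. Among negative cells alone, Cdkn1a over the control was 45.8-fold at 24 h (30.6 to 71.8), 26.0-fold at 48 h (17.2 to 41.1), 3.50-fold at 96 h (2.17 to 5.83) and 35.3-fold at postnatal day 14 (23.6 to 55.1). Negative cells at 24 h had more Cdkn1a (84.1 CPM) than positive cells at 96 h (44.1 CPM). At 96 h the gene was thus concentrated in cells with Mki67 or Top2a UMIs, and at 24 h and postnatal day 14 it was spread over both classes.

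Phlda3 parted the classes more than Cdkn1a at 24 and 48 h, though from few UMIs. Phlda3 was 3.17 and 0.489 CPM in positive and negative cells at 24 h, 5.73 and 1.06 at 48 h, and 8.05 and 1.70 at 96 h, ratios of 6.48 (2.57 to 19.5), 5.43 (2.62 to 13.0) and 4.73 (2.44 to 9.30), but 0.219 against 0.194 CPM at postnatal day 14. On the log2 scale of CPM plus 1 its 24 h ratio was 0 in place of 1.49 with at least 3% hepatocyte transcripts. The 48 h ratio was 0 in place of 1.71 without barcodes holding 3 markers of another class (12 positive and 20 negative cells). At 5000 UMIs per cell Phlda3 came down to 3 and 0 UMIs in positive and negative cells at 24 h, 6 and 1 at 48 h (4.67, 0.567 to 215) and 3 and 4 at 96 h (3.50, 0.512 to 20.7), too few to show a difference. Ccng1 was 1.49-fold (1.30 to 1.71), 1.26-fold (1.10 to 1.44) and 1.68-fold (1.44 to 1.96) higher in positive cells at 24, 48 and 96 h. Thinned to that depth, the Ccng1 ratio was 1.32 (0.985 to 1.75), 1.31 (0.962 to 1.80) and 1.57 (1.08 to 2.24), so a difference beyond counting error was left at 96 h. For Mdm2 the ratios were 1.16, 1.40 and 1.57 at these times and 1.01 at postnatal day 14, and 1.26 (0.908 to 1.73), 1.45 (0.952 to 2.24), 1.93 (1.17 to 3.08) and 0.882 (0.558 to 1.36) at 5000 UMIs per cell. Bax ran from 1.11 at postnatal day 14 to 1.45 at 96 h in the 4 libraries other than the control. In thinned counts its interval spanned 1 in each of these, as at 96 h (1.46, 0.913 to 2.28).

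Btg2 was level at 24 h, with 67.6 against 67.3 CPM and a ratio of 1.00 (0.896 to 1.12), and was 1.43-fold higher in positive cells at 48 h (1.28 to 1.61) and 1.34-fold at 96 h (1.18 to 1.52). Trp53inp1 was 1.37-fold higher at 24 h (1.27 to 1.49), 1.10-fold at 48 h (0.989 to 1.23) and 1.32-fold at 96 h (1.15 to 1.51). At 5000 UMIs per cell Trp53inp1 was 1.55-fold higher at 24 h (1.30 to 1.84) against 0.971 at 48 h (0.733 to 1.29) and 1.04 at 96 h (0.724 to 1.45). Btg2 at that depth was 0.884 at 24 h (0.666 to 1.16), 1.44 at 48 h (1.04 to 2.01) and 1.24 at 96 h (0.916 to 1.65). Gdf15 in positive and negative cells was 28.3 and 23.0 CPM at 24 h, 23.2 and 19.3 at 48 h, 34.6 and 23.2 at 96 h, and 5.59 and 3.24 at postnatal day 14. At 5000 UMIs per cell its ratio was 1.69 (1.09 to 2.59), 2.33 (1.15 to 5.12) and 1.87 (1.02 to 3.29) at 24, 48 and 96 h and 1.03 (0.443 to 2.23) at postnatal day 14, against 1.23, 1.21, 1.49 and 1.73 from all UMIs. By the same 2-fold rule, the members higher in positive cells were 3 of 6 in the control, where 9.81% of all genes were, 0 of 7 at 24 h (4.41%), 1 of 8 at 48 h (5.56%), 2 of 8 at 96 h (5.35%) and 0 of 7 at postnatal day 14 (4.22%). No member was lower in positive cells by this rule, where 7.6% of genes were in the control, 0.0226%, 0.249% and 0.86% at 24, 48 and 96 h, and 0% at postnatal day 14. The higher members were Cdkn1a, Ccng1 and Bax in the control, Phlda3 at 48 h, and Cdkn1a and Phlda3 at 96 h. Phlda3, and Cdkn1a in the control, passed 5 CPM only in the positive cells, where they were high. As above, nothing is read from these counts.

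**Figure D2:**
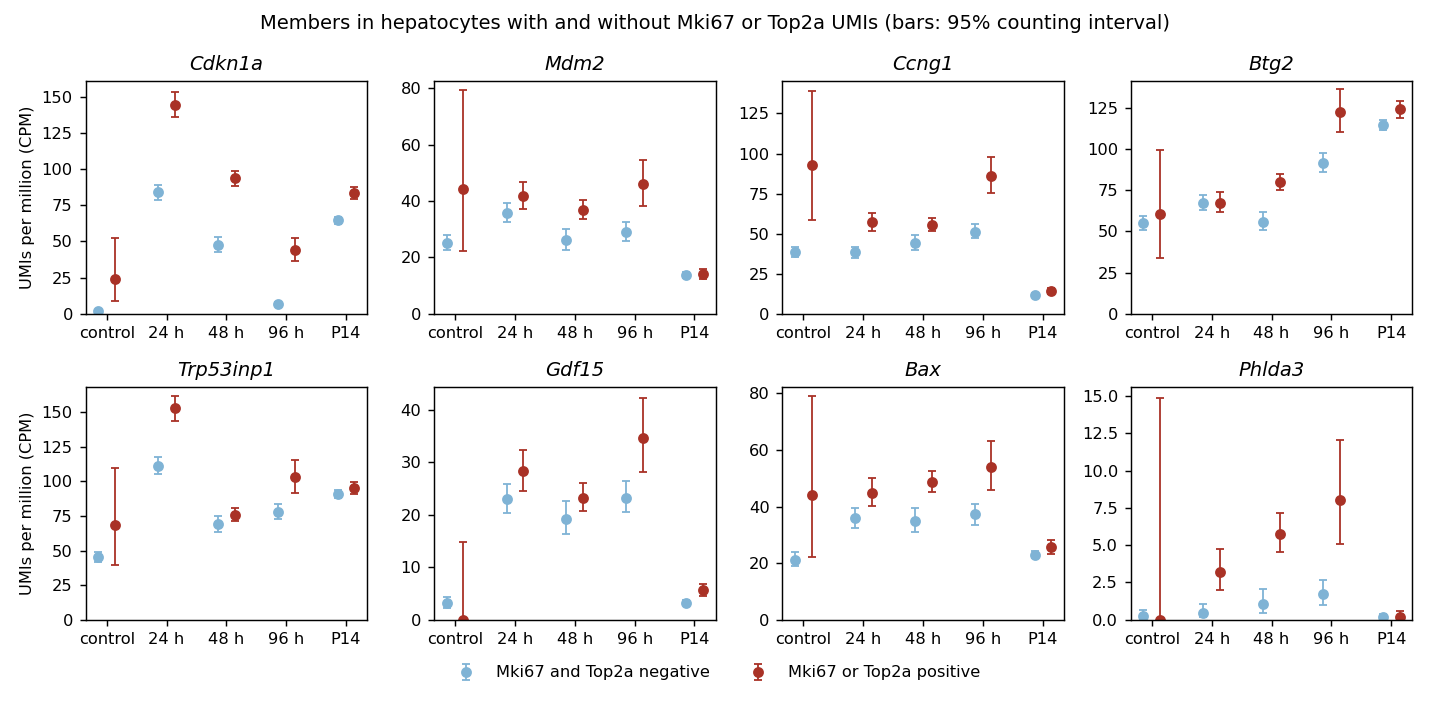
Level of each gene (vertical axes, CPM) in hepatocytes with (red) and without (blue) a UMI of Mki67 or Top2a in each library; bars are exact 95% counting intervals. In these counts from all UMIs, the Cdkn1a and Phlda3 points part most in the 3 PHx libraries, as at 96 h (44.1 against 6.43 CPM and 8.05 against 1.70 CPM). At 5000 UMIs per cell Phlda3 was too sparse to show a difference. At that depth the Gdf15 ratio was above that of Cdkn1a at 24 h (1.69 against 1.57) and 48 h (2.33 against 1.61), with overlapping intervals. The wide control bars come from 15 positive cells.

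All hepatocytes of a library were also grouped, whether or not they had Mki67 or Top2a UMIs, by how many genes of a replication list and of a mitosis list (20 genes each, neither holding Mki67 or Top2a) a cell showed at 5000 UMIs; at least 3 made a cell positive. Cdkn1a was highest in cells positive for both lists. At 24 h it was 166 CPM in these, 127 in cells positive for replication only, 113 in 16 cells positive for mitosis only and 77.4 in cells with neither. At 48 h the same 4 classes had 116, 91.1, 79.4 and 52.7 CPM, and at postnatal day 14 they had 113, 78.5, 83.8 and 65.1 CPM. At 96 h they had 91.7, 11.2, 40.0 and 8.28 CPM in 30, 31, 41 and 669 cells. The 96 h replication-only cells thus did not differ from cells with neither beyond counting error (ratio 1.35, 0.483 to 3.05), while those positive for both lists stood 11.1-fold above them (7.83 to 15.6).

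Gdf15 and Btg2 lay on opposite sides of the cells with neither list in mitosis-only cells of the 48 h library. There, Gdf15 was 13.1 CPM in mitosis-only cells against 22.6 in cells with neither, a ratio of 0.580 (0.436 to 0.764), and 28.0 and 27.6 CPM in the other 2 classes. In the same mitosis-only cells Btg2 was 87.8 against 63.5 CPM, 1.38-fold (1.22 to 1.57). The other PHx libraries did not show this: at 24 h, in 16 mitosis-only cells, the ratios were 0.564 (0.152 to 1.47) for Gdf15 and 0.552 (0.292 to 0.951) for Btg2, and at 96 h they were 1.22 (0.799 to 1.81) and 1.12 (0.903 to 1.38). Ccng1 was 68.6 CPM in cells positive for both lists at 48 h against 44.9 in cells with neither, 1.53-fold (1.30 to 1.79). Phlda3 in cells positive for both lists was 3.50, 10.1 and 19.3 CPM at 24, 48 and 96 h, against 0.412, 0.586 and 2.03 in cells with neither. These levels rest on few UMIs, as all hepatocytes of these libraries held 29, 84 and 41 Phlda3 UMIs. Cells positive for both lists also had more UMIs than cells with neither in the PHx libraries (medians of 24500, 40295 and 26202 against 19433, 32302 and 21352), and CPM divides by that total.

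**Figure D3:**
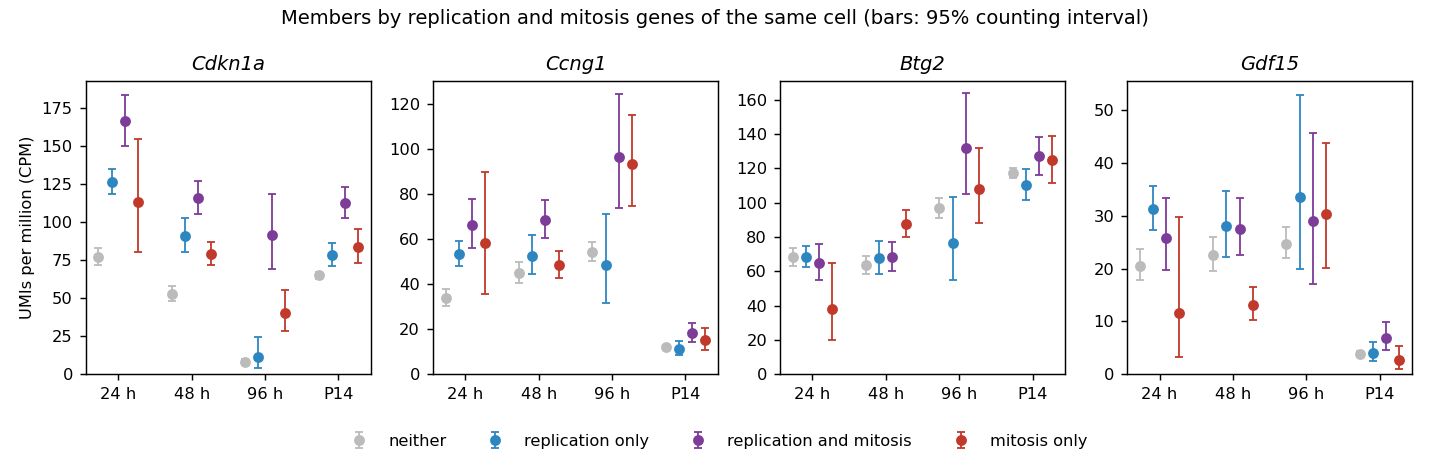
Level of Cdkn1a, Ccng1, Btg2 and Gdf15 (vertical axes, CPM) in hepatocytes grouped by replication-list and mitosis-list genes in the 24, 48 and 96 h PHx and postnatal day 14 (P14) libraries; bars are exact 95% counting intervals. Cdkn1a is highest in cells positive for both lists in all 4 libraries, from 91.7 to 166 CPM.

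Most single hepatocytes with Cdkn1a had 1 or 2 UMIs of it at equal depth. At 5000 UMIs per cell, 30.1% of hepatocytes had a Cdkn1a UMI at 24 h (exact Clopper-Pearson interval 27.5 to 32.8), 25.3% at 48 h (22.2 to 28.7), 23.6% at postnatal day 14 (21.8 to 25.4), 4.15% at 96 h (2.86 to 5.81) and 0.216% in the control (0.0262 to 0.779). At full depth these were 69.6%, 74.3%, 73.4%, 14.5% and 2.70%. T or NK cell barcodes of the same libraries, at medians of 4658 to 7939 UMIs, had a Cdkn1a UMI in 12.9% at 24 h, 3.19% at 48 h, 3.39% at 96 h, 2.99% at postnatal day 14 and 1.10% in the control. The control hepatocyte share lay below that of T or NK barcodes, so no expression in single control cells is read from it, and the 96 h share lay close to theirs. At most 9 cells per library had 3 or more Cdkn1a UMIs at this depth, and the variance of the counts was 1.12 times their mean at 24 h, 1.17 times at 48 h, 1.22 times at 96 h and 1.09 times at postnatal day 14 (1.67 times in the control, from 3 UMIs), where counting alone gives a ratio of 1.

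Since so few cells had 3 UMIs, cells with at least 1 Cdkn1a UMI were compared with cells with 0; this split was chosen after those counts were seen. At 24 h the other members were 1.03-fold (Btg2) to 1.24-fold (Bax) higher in Cdkn1a-positive cells, Phlda3 aside. At 96 h, 32 Cdkn1a-positive cells had 111 against 56.4 CPM of Ccng1 (1.97-fold, 1.49 to 2.56) and 58.3 against 31.6 CPM of Mdm2 (1.85-fold, 1.25 to 2.65). They also had 117 against 28.5 CPM of Mki67 (4.08-fold, 3.08 to 5.34), so Mki67 ran higher in the same cells. Weak ratios in counts this sparse are not read as a finding.

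Phlda3 UMIs fell in few hepatocytes. Of the hepatocytes with a Phlda3 UMI, 22 of 24 at 24 h, 59 of 64 at 48 h, 17 of 35 at 96 h and 9 of 9 at postnatal day 14 also had Cdkn1a, as did 0 of 2 in the control. Of all hepatocytes 69.6%, 74.3%, 14.5% and 73.4% had Cdkn1a at full depth in these 4 libraries. Cells with Phlda3 were deeper after PHx, with medians of 28200.5, 50736 and 27914 UMIs against 19365, 34449 and 21788 in the rest, and the part of depth in these counts was not tested. Mki67 or Top2a was found in 18, 57, 18 and 3 of the cells with Phlda3 (75.0%, 89.1%, 51.4% and 33.3%). Of all hepatocytes in these libraries 30.8%, 55.6%, 17.6% and 28.0% were positive. After PHx, cells with Phlda3 were thus more often positive, and the part of this in the Cdkn1a ratios that follow was not tested. Cdkn1a was 1.85-fold (1.50 to 2.26), 1.64-fold (1.44 to 1.87), 6.88-fold (4.96 to 9.44) and 2.99-fold (2.26 to 3.88) higher in cells with a Phlda3 UMI than in the rest. At postnatal day 14 these 9 cells held 1 to 16 Cdkn1a UMIs, with a median of 6 against 2 in other cells, at a similar depth (37659 against 38923 UMIs). This comparison, too, was chosen after values were seen.

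Position in the lobule was read from the difference between the summed UMIs of pericentral and of periportal list genes. The hepatocytes of each library were cut into 3 ranges with equal numbers of cells. These are ranges of a score, not cell types. Abundant list genes weigh most in it, and they differed between libraries, as did the periportal Cyp2f2 (1882 CPM in the control, 274 at 48 h and 31.3 at postnatal day 14). The same range may thus not mark the same position in different libraries. Cdkn1a was level across the ranges at 24 h (104, 111 and 104 CPM from periportal to pericentral) and at 48 h (75.3, 81.4 and 73.6 CPM). At 96 h it was 8.73, 8.79 and 23.7 CPM, a pericentral to periportal ratio of 2.72 (1.85 to 4.08), and 33.5% of the pericentral range but 3.11% of the periportal range was Mki67- or Top2a-positive. At postnatal day 14 the direction was the opposite, with 77.2, 72.6 and 60.1 CPM (0.779, 0.724 to 0.837), and the positive share was 22.1% pericentrally and 30.2% periportally. At 24 h, where Cdkn1a was level, the positive share was 39.0% pericentrally and 17.4% periportally. The part of the positive share in the Cdkn1a levels of these ranges was not tested.

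Btg2 was lower in the pericentral range of 4 libraries: 42.8 against 59.4 CPM in the control (0.721, 0.596 to 0.871), 53.2 against 72.6 at 24 h (0.733, 0.634 to 0.847), 46.8 against 89.4 at 48 h (0.524, 0.455 to 0.602) and 91.4 against 136 at postnatal day 14 (0.672, 0.635 to 0.712). At 96 h the pericentral range had 93.9 against 87.5 CPM (1.07, 0.933 to 1.23). Trp53inp1 was higher pericentrally at 24 h, at 156 against 105 CPM (1.48, 1.34 to 1.64), and level at 48 h (1.01, 0.892 to 1.15). Gdf15 was lower pericentrally at 48 h (18.1 against 27.3 CPM) and higher at 96 h (30.6 against 23.2 CPM). Bax was 1.67-fold higher in the pericentral range at 96 h (1.34 to 2.08).

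**Figure D4:**
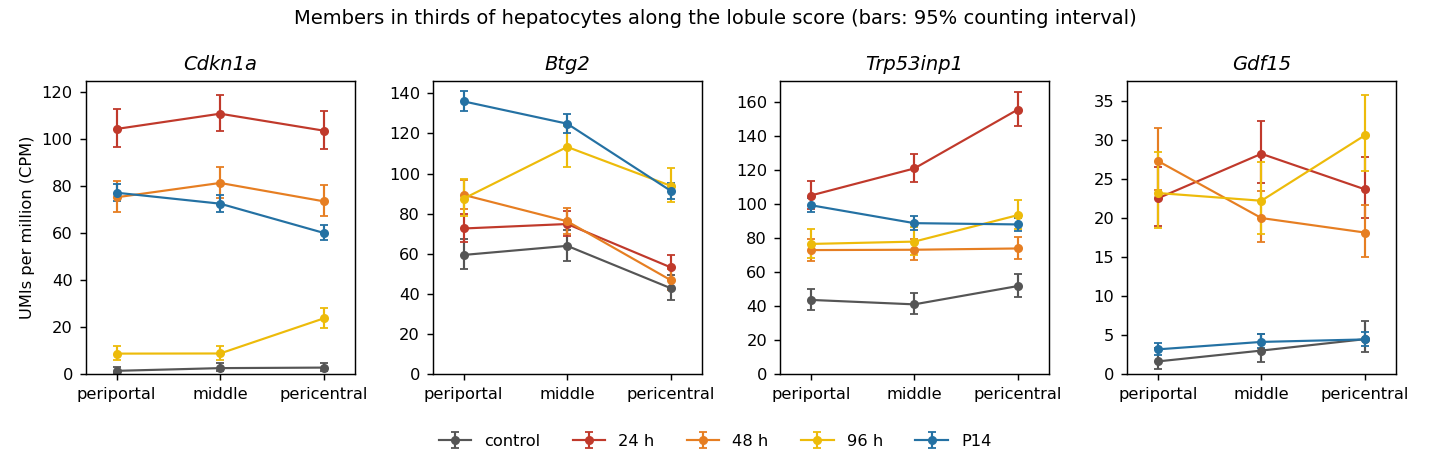
Level of Cdkn1a, Btg2, Trp53inp1 and Gdf15 (vertical axes, CPM) in the periportal, middle and pericentral ranges of the hepatocytes of each library; points are summed counts with exact 95% counting intervals, and lines join the ranges of 1 library. Btg2 drops towards the pericentral range in all libraries except 96 h, and Cdkn1a at 96 h is 23.7 CPM pericentrally against 8.73 CPM periportally.

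Outside hepatocytes, classes were taken as barcodes with at least 3 of 10 markers of a class and under 1% of Alb, Apoa1 and Ttr UMIs; classes under 20 barcodes are not given. Endothelial barcodes at 24 h had 195 CPM of Cdkn1a (108 UMIs in 183 barcodes), above the 107 CPM of hepatocytes, and 72.4 CPM at 48 h and 25.5 CPM at 96 h; in the control it was 4 UMIs in 24 barcodes. Monocyte, macrophage or dendritic barcodes had 92.2, 48.9 and 58.7 CPM at 24, 48 and 96 h, from 23 to 28 barcodes. T or NK barcodes had 1.91 CPM in the control, 33.1, 6.17 and 4.73 at 24, 48 and 96 h, and 4.20 at postnatal day 14. Among the PHx libraries Cdkn1a was thus highest at 24 h in these 3 classes too, from few barcodes in the monocyte, macrophage or dendritic class. Free RNA held 94.8 CPM of Cdkn1a in the 24 h library, and its part in these values was not tested.

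Gdf15 was low outside hepatocytes: no class given reached more than 4.44 CPM in any library, and T or NK barcodes had 0 to 3 UMIs per library, against 21.8 to 25.7 CPM in hepatocytes after PHx. Bax ran the other way, at 136 to 186 CPM in T or NK barcodes of the 5 libraries against 21.7 to 43.8 CPM in hepatocytes. Btg2 was also higher in T or NK barcodes (130 to 248 CPM) than in hepatocytes (55.0 to 117 CPM). Free RNA holds transcripts of all these classes, and their part in the Bax level of hepatocytes was not tested beyond the subtraction above.

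The wider p53 pathway was described by 35 other known targets, in lists that were also drawn up with earlier results known. At 24 h, 22 of them reached 5 CPM, of which 3 were at least 2-fold higher and 2 lower. At 48 h it was 3 higher and 2 lower of 22, at 96 h 1 higher and 2 lower of 21, and at postnatal day 14 2 higher and 8 lower of 22. Of all genes, 8.51%, 8.3%, 4.07% and 7.89% were higher and 7.13%, 7.63%, 1.88% and 13.8% lower in the same comparisons. Over the alternative settings the 24 h counts ran from 0 to 5 higher and 1 to 5 lower, the 48 h counts from 1 to 6 and 0 to 2, the 96 h counts from 0 to 2 and 0 to 3, and the postnatal counts from 0 to 4 and 2 to 9. The medians were -0.08, -0.15, 0.10 and -0.51, beside -0.00, -0.08, 0.04 and -0.26 for all genes. The higher ones were Ckap2 in all 4 comparisons, Gtse1 at 24 and 48 h, Polk at 24 h, Ddit4 at 48 h and Bcl2l11 at postnatal day 14. Of these, only Polk reached 5 CPM in the control. The others passed the filter only through the library where they were high, so nothing is read from the counts of higher targets. Ckap2 and Gtse1 encode microtubule-binding proteins of dividing cells. Ckap2 was 0.375 CPM in the control (5 UMIs), 11.9, 39.9 and 12.4 at 24, 48 and 96 h, and 7.26 at postnatal day 14. Gtse1 was 0.601 CPM in the control, 5.12 at 24 h and 9.31 at 48 h. Polk, a translesion DNA polymerase, was 5.03 CPM in the control and 12.3 at 24 h, 2.44-fold (1.86 to 3.25). Ddit4, an inhibitor of mTORC1 signalling, was 2.48 CPM in the control and 9.46 at 48 h, and Bcl2l11, which encodes the death activator BIM, was 4.81 CPM in the control and 13.1 at postnatal day 14.

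Gadd45a, a growth arrest and repair gene, was below the control in all 4 comparisons, at 34.2 CPM in the control against 11.4, 11.9 and 15.8 CPM at 24, 48 and 96 h and 7.17 CPM at postnatal day 14. Bbc3, which encodes the death activator PUMA, was 8.79 CPM in the control, 3.18 at 24 h and 1.77 at postnatal day 14. Plk3, a stress kinase, was 47.5 CPM in the control against 7.96 at postnatal day 14. Rrm2b, a ribonucleotide reductase subunit, was 18.7 CPM in the control against 7.96 at 96 h and 4.17 at postnatal day 14. Of the 14 p53 regulators, 11 reached 5 CPM at 24 and at 48 h and 2 of these were higher at each time, beside 8.51% and 8.3% of all genes. They were the checkpoint kinase genes Chek1 (12.8 CPM at 24 h and 6.14 at 48 h against 0.300) and Chek2 (5.94 and 5.33 against 2.03). Both were under 5 CPM in the control and passed the filter only through the PHx libraries, where they were high. Nothing is read from this count.

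Hspa1b, a heat shock gene, was 52.3 CPM in the control against 10.5, 5.28 and 19.5 CPM in the PHx libraries in order of time and 1.72 CPM at postnatal day 14, and Socs3 was 69.7 CPM in the control against 1.90 CPM at postnatal day 14. Of a list of 16 dissociation and immediate early genes, 12, 12, 13 and 11 reached 5 CPM at 24, 48 and 96 h and postnatal day 14, of which 2, 4, 4 and 0 were higher and 2, 3, 2 and 4 lower. The genes higher after PHx included Klf6 (22.2 and 23.8 CPM at 24 and 48 h against 8.79), Nr4a1 (6.46 and 11.6 CPM at 24 and 96 h against 2.63) and Fosb (5.18 and 6.10 CPM at 48 and 96 h against 1.65). Nr4a1 and Fosb were under 5 CPM in the control and passed the filter only through the PHx libraries, where they were high. All genes were higher in 8.51%, 8.3%, 4.07% and 7.89% and lower in 7.13%, 7.63%, 1.88% and 13.8% in these 4 comparisons. The list thus moved in both directions after PHx, and its part in the lower Gadd45a and Plk3 levels elsewhere was not tested.

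Other CDK inhibitors and the partners of p21 give the setting of Cdkn1a. Of 7 other CDK inhibitor genes, 4 reached 5 CPM in each comparison, and 2, 3, 2 and 2 were higher at 24, 48 and 96 h and postnatal day 14, with none lower, beside 8.51%, 8.3%, 4.07% and 7.89% of all genes higher. Cdkn2c (p18) was 8.79 CPM in the control, and 28.0, 50.1 and 28.9 CPM at 24, 48 and 96 h. Cdkn3, a phosphatase of CDKs, was 1.13 CPM in the control and 5.33, 50.5 and 22.1 CPM at 24, 48 and 96 h. Cdkn1c (p57), a relative of p21, was 107 CPM at postnatal day 14 against 0.526 CPM in the control (7 UMIs). Of 11 genes for p21 binding partners, 8 of 10, 7 of 10, 4 of 8 and 6 of 10 tested were higher in the same order of libraries, against the same shares of all genes. Ccnd1 (cyclin D1) was 25.5 CPM in the control, 369, 141 and 101 at 24, 48 and 96 h, and 106 at postnatal day 14. Ccnb1 (cyclin B1) was 84.9 CPM at 48 h against 1.28 in the control. Cdkn3, Cdkn1c and Ccnb1 were under 5 CPM in the control and passed the filter only through the libraries where they were high. Nothing is read from the counts of these lists.

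Genes were ranked by how like Cdkn1a they ran over the 5 libraries, by Pearson's r of log2 CPM plus 1 among 474 genes that reached 50 CPM and had a log2 range of at least 2. The 6 most alike were Mcm6 (0.977), Serpina3m (0.973), Sult1a1 (0.971), Acnat2 (0.968), Top2a (0.964) and Tubb2a (0.957). With 5 points per gene, 1 control and 4 libraries above it, high values are easily reached, and the measure is a description. Mcm6, a replication helicase subunit, was 3.98 CPM in the control, 116, 59.7 and 22.7 at 24, 48 and 96 h, and 44.9 at postnatal day 14. Within the set, r with Cdkn1a was 0.84 for Trp53inp1, 0.51 for Bax, 0.48 for Gdf15, 0.39 for Btg2, 0.33 for Phlda3, 0.03 for Mdm2 and -0.22 for Ccng1. By this measure the 8 genes did not share 1 pattern over these libraries, and Mdm2, the feedback target of p53, had an r near 0. That value depends on postnatal day 14, where Mdm2 was lowest. In the adult libraries Mdm2 ranked in the same order as Cdkn1a (24 h, 48 h, 96 h, control), though its intervals after PHx overlapped.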

How the data were processed

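Single-cell RNA was measured in 1 droplet library per group, 5 in all, prepared by 2-step liver perfusion and dead cell removal, per the labels' protocols. The deposited matrices hold raw UMI counts per gene and barcode with all barcodes kept, per the file headers; bcl2fastq 2.17.1.14, Cell Ranger, Seurat 3.1 and build mm10 are named in the submitters' processing notes, with no role given. The 8 genes and all gene lists were chosen with earlier results of these data known.

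Hepatocytes were gated as described in the report. Counts were summed per library and divided by the total without mitochondrial genes. Ratios of CPM carry exact conditional (Clopper-Pearson) 95% counting intervals and levels exact Poisson intervals; log2 ratios use a pseudocount of 1 CPM. With 1 library per group no test between groups was run. Shares were computed after thinning each cell to 5000 UMIs (random seed 20). Empty droplets were barcodes 20001 to 60000 by rank of total UMIs. No doublet caller was run; hepatocytes with 3 markers of another class were left out as an alternative. Named genes were the 8 members, Mki67, Top2a, Trp53, up to 4 genes per list and comparison with the largest log2 ratio past 2-fold, and the 6 genes most like Cdkn1a; other values of those genes stand beside them. Python 3.11.15, numpy 2.4.6, pandas 2.3.3, scipy 1.17.1, R 4.3.3 and edgeR 4.0.16 (TMM factors only) were used, and ratios, intervals and thinning were tested on simulated data. Alternatives changed the gate, scaling, pseudocount, filter, thinning and the definition of cycling cells. Promoter windows came from RefSeq (GRCm38.p6), and gene coordinates are of the same assembly.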

Additional observations from a re-analysis of the deposited data

Results flagged for a closer look

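For Mdm2 and Ccng1 the 3 PHx libraries lay above the adult control and the postnatal library below it, opposite directions that were not tested, with 1 library on each side and a shared control. Mdm2 was 1.49-fold, 1.30-fold and 1.28-fold at 24, 48 and 96 h and 0.543-fold at postnatal day 14. Ccng1 was 1.15-fold, 1.30-fold and 1.49-fold at the same times and 0.317-fold at postnatal day 14. The Mdm2 log2 ratio was -0.13 at 48 h and -0.16 at 96 h in cells with 10 to 20% mitochondrial UMIs, and that of Ccng1 at 24 h was -0.16 with at least 3% hepatocyte transcripts, so these directions turned there.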

How the results depend on the processing

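No paired analysis was possible because each group is 1 library. Leaving out a replicate was not possible for the same reason. Of the log2 ratios of members over the control under other settings, 400 moved by less than their counting interval, 79 moved by more and 1 reversed among those past 2-fold: Phlda3 at 24 h was -0.42 with at least 3% hepatocyte transcripts (144 cells, and 410 in the control). Of those of positive over negative cells, 501 moved by less, 94 by more and 5 reversed, all 5 in the control, where at most 15 cells were positive: Cdkn1a was -1.81 with 10 to 20% mitochondrial UMIs and -1.44 with at least 3% hepatocyte transcripts, and Bax was -4.15 with 10 to 20% mitochondrial UMIs, -4.63 without barcodes holding 3 markers of another class and -0.56 at 5000 UMIs per cell.

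Leaving out barcodes with 3 markers of another class, erythroid markers included, left 197 control, 378, 32 and 405 PHx and 1623 postnatal hepatocytes (12 positive and 20 negative at 48 h). Members at least 2-fold higher at 96 h were 1 with a pseudocount of 10 CPM or a filter of 20 CPM, against 2. At postnatal day 14, 1 was higher without barcodes holding 3 markers of another class, with free RNA subtracted or with a pseudocount of 10 CPM, against 2, and 3 were lower with 10 to 20% mitochondrial UMIs, against 1. The number higher also rose under some setting in each comparison: to 4 at 24 h, against 3, and to 3 at 48 h, at 96 h and at postnatal day 14, against 2. For positive over negative control cells, 1 was higher with at least 3% hepatocyte transcripts, 6 with at least 2 UMIs of Mki67 and Top2a and 5 with cells called in thinned counts, against 3; 3 were lower with 10 to 20% mitochondrial UMIs and 2 without other-class barcodes, against 0. At 24 h, 1 was higher without other-class barcodes and 2 with the mitosis list, against 0. At 48 h, 0 were higher with 10 to 20% mitochondrial UMIs, at least 3% hepatocyte transcripts or mitochondrial UMIs in the total, 3 without other-class barcodes and 2 with the mitosis list, against 1. At 96 h, 6 were higher with 10 to 20% mitochondrial UMIs and 1 with low-mitochondrial barcodes included, against 2, and at postnatal day 14, 1 with 10 to 20%, against 0. The cause was not tested.

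Of the counts of the 35 other p53 targets over the control, 13 of those higher and 15 of those lower moved by over 1.5 times.

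The share of hepatocytes with a Cdkn1a UMI followed depth: unthinned it was 2.70, 69.6, 74.3, 14.5 and 73.4% in the control, at 24, 48 and 96 h and at postnatal day 14, and at 10000 UMIs per cell 1.29, 50.7, 41.1, 9.25 and 38.1%. The negative-cell ratios, the split by Cdkn1a UMIs and the filter on other classes with the erythroid list aside were chosen after seeing the data.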
